A study of Mus musculus with 22 samples.

Results

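AP-1 and immediate early genes were examined in bulk RNA-seq libraries of mouse tumour cell lines. The set held Fos, Fosb, Fosl1, Fosl2, Jun, Junb, Atf3, Egr1, Nr4a1 and Nr4a2, which were taken by gene name from the deposited table: 10 of its 49671 genes, each present as 1 row and each passing the filter on low values. The 22 libraries formed 11 groups of 2, named sample 1 and sample 2 in the labels, which also tag that number as a batch. The primary lines came from a tumour with the alleles Lgr5CreER, KrasLSL-G12D, p53fl/fl and Rosa26-YFP+/+, so the control line and every knockout line carried all of these, with the Cre placed under Lgr5. The other 4 lines were CRISPR/Cas9 knockouts, of Pitx1, of Klf5, of Nfatc1 and of Creb3l1. At day 8 each of the 5 lines was sorted into EPCAM+ and EPCAM- cells, and EPCAM+ control cells were also taken at day 0. The labels name neither the organ nor what began at day 0. They do not say whether samples 1 and 2 were separate cultures or knockout clones, so p-values measure only the spread between these samples, which may be technical.

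AP-1 is a family of dimeric transcription factors: Fos proteins pair with Jun proteins through leucine zippers, and Atf3, a stress-induced member of the ATF family, can join Jun in the same way. Immediate early genes are transcribed from factors already present in the cell, within minutes of a growth signal or stress, and their mRNAs are short-lived. Fos, Fosb, Egr1 and the nuclear receptors Nr4a1 and Nr4a2 belong to this class, Fosl1 and Fosl2 usually follow later, and detaching and sorting cells is known to raise many of these mRNAs. Here cells were detached with trypsin, stained with the antibody in the cold and sorted; the handling time of each sample is not given in the sources used here.

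Deposited values were reads scaled to a common total, and 1 read was worth 2.02 to 3.30 units, so 3 reads stood for 6.07 to 9.91 units. Recovered reads in genes were 6054929 to 9882700 per library (median 7804837), with 6723621 to 8358609 in sample 1 libraries and 6054929 to 9882700 in sample 2 libraries. Mitochondrial genes held 1.56 to 2.84% of sample 1 libraries (median 2.10%) and 1.76 to 2.25% of sample 2 libraries (median 2.09%). Epcam, the sorted surface protein, read 3702 to 7320 in EPCAM+ and 90 to 735 in EPCAM- libraries. Pitx1 was 1205 to 1627 in its knockout and Nfatc1 182 to 249 in its knockout, against 4358 to 6438 and 488 to 981 in control cells at day 8. Klf5 overlapped with the control (1961 to 2247 against 1733 to 2941), and Creb3l1 was at 0 to 12 in every library but those of control EPCAM- cells at day 8 (137 and 26), so neither mRNA checks its knockout. Epithelial markers were mixed: Trp63 read 0 to 16, Krt5 0 to 178, Krt14 52 to 12774, Krt17 8 to 7976 and Krt8 7622 to 19245. Of 16 immune markers 12 stayed under 10 units in all 22 libraries, and Ms4a1, Tyrobp and Cd3e were at 0.

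All 10 genes were clearly expressed. Per kilobase of exon and averaged over the 22 libraries, the level was highest for Junb (1816 units per kb), followed by Fosl1 (1204), Egr1 (835), Fos (808), Jun (628), Atf3 (387), Fosb (383), Fosl2 (324), Nr4a1 (234) and Nr4a2 (119). The spread across libraries was widest for Egr1, a zinc finger factor of the serum response, whose highest library stood 16.6-fold above its lowest. Fos spanned 11.99-fold, Nr4a1 10.1-fold, Fosb 7.58-fold and Atf3 7.13-fold. Nr4a2 spanned 4.76-fold, Junb 3.53-fold, Jun 2.65-fold, Fosl1 2.61-fold and Fosl2 2.39-fold. The step from each gene to the next in the order of levels was smaller than the range of either gene across libraries.

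**Figure D1:**
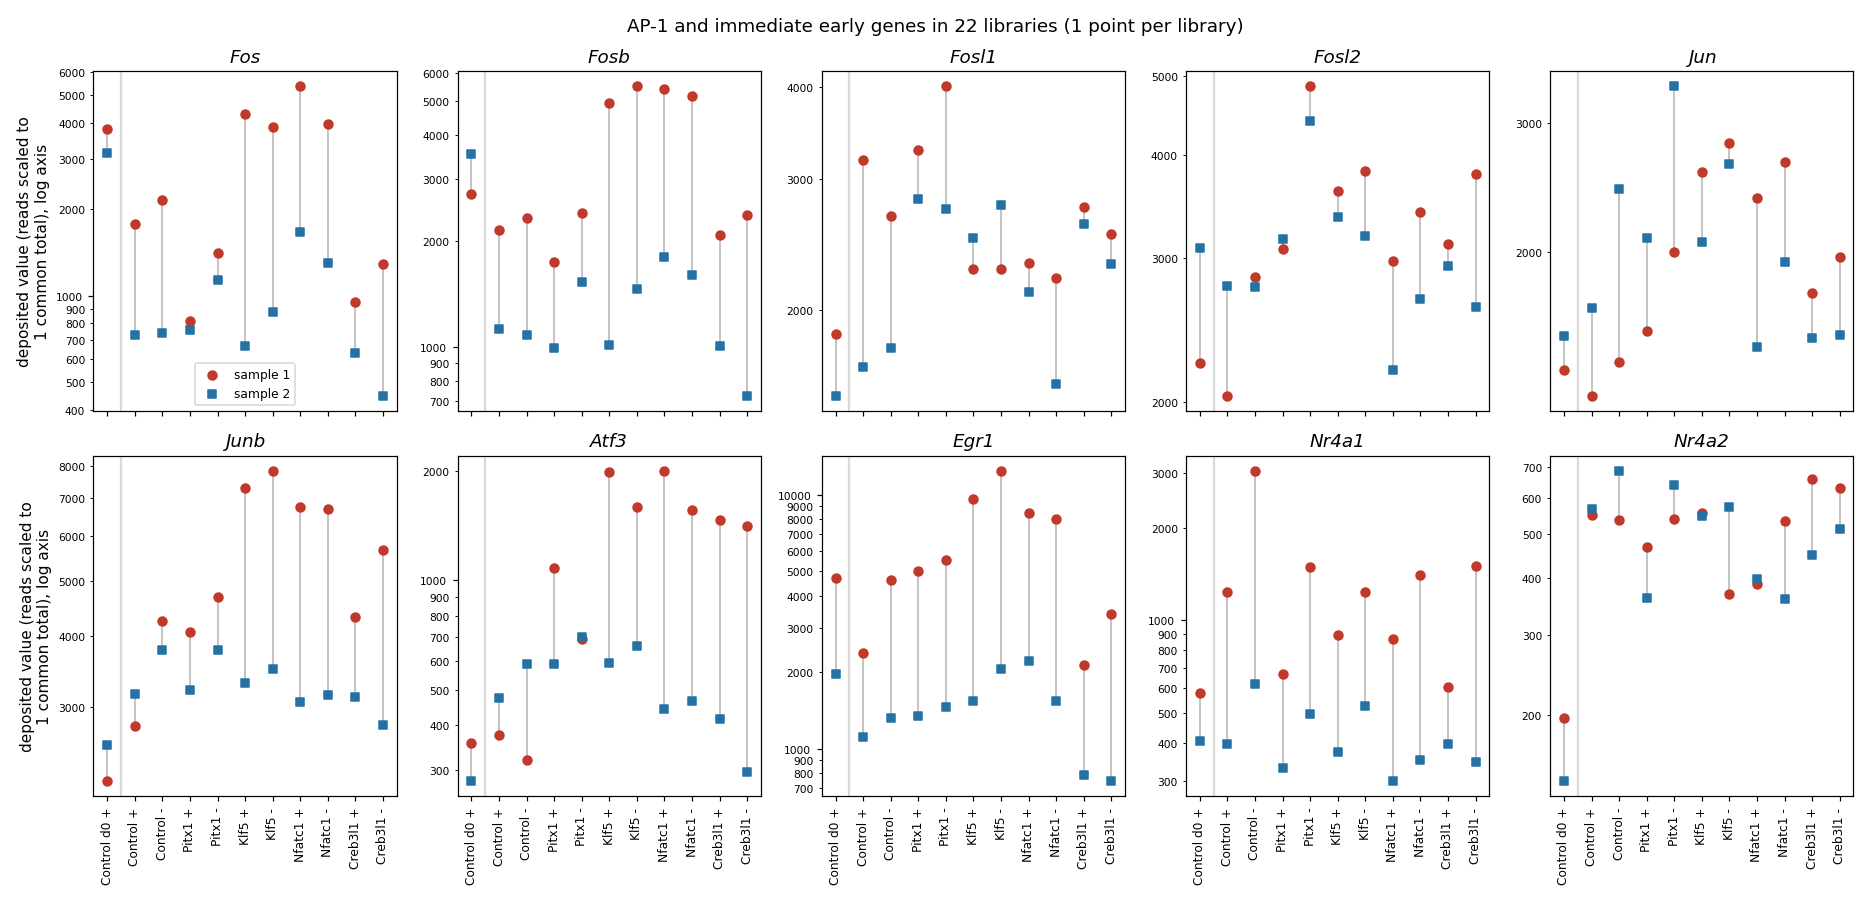
Deposited value of each gene (log axis, units of reads scaled to a common total; each panel has its own range) in the 11 groups, with sample 1 as circles and sample 2 as squares joined by a line; + and - mark EPCAM+ and EPCAM- cells, and all groups right of the grey line are from day 8. Egr1, Fos and Nr4a1 were higher in sample 1 in 11 of 11 groups, and Nr4a2 was lowest in both day 0 libraries (197 and 144).

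The sample number gave the most calls among these genes. Egr1, Nr4a1, Fos, Fosb, Atf3, Junb and Fosl1 were lower in sample 2 than in sample 1, 7 of 10 at an adjusted p below 0.05 (limma on log2(value + 1) with the 11 groups as terms, Benjamini-Hochberg over 19569 genes), and 0 were higher. The same test called 20.2% of all genes, and 9.25% of all genes lower in sample 2. The median difference of the 10 genes was -0.79 on the log2 scale, beside 0.02 over all genes tested. The 2 fractions of a line and sample number deviated together, so the 11 pairs are not independent; with the fractions averaged first, which leaves 6 pairs, Egr1 and Nr4a1 were called, 2 of 10, where 6.75% of all genes were. The adjusted p over 6 pairs is therefore given beside the results from the 11 pairs. Deviations also correlated across lines, at 0.449 to 0.655 between groups of the Klf5, Nfatc1 and Creb3l1 knockouts. Between the control at day 8 and the Creb3l1 knockout they correlated at -0.252 to 0.00322. The 6 pairs are thus not fully independent either.

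Among the Fos genes, Fos itself read 816 to 5358 in sample 1 (median 2155) and 447 to 3131 in sample 2 (median 758). In EPCAM+ cells at day 8 samples 1 and 2 gave 1778 and 729 in the control line, 816 and 758 in the Pitx1 knockout, 4307 and 666 in the Klf5 knockout, 5358 and 1662 in the Nfatc1 knockout and 948 and 632 in the Creb3l1 knockout. In EPCAM- cells the values in the same order were 2155 and 741, 1411 and 1136, 3878 and 877, 3950 and 1300, and 1292 and 447. Sample 1 was the higher of the pair in 11 of 11 groups, by 1.08- to 6.47-fold, and the 4 Klf5 and Nfatc1 libraries of sample 1 were the highest of all at day 8. The mean difference was -1.25 (standard error 0.24, adjusted p 0.00332, over 6 pairs 0.0569, limma). Fosb, its close relative with the same dimer partners, read 1738 to 5495 in sample 1 (median 2393) and 725 to 3534 in sample 2 (median 1121). Day 0 was the exception, with 2711 in sample 1 and 3534 in sample 2; in the other 10 groups sample 1 was higher, as it was in 10 or more groups for 6.77% of all genes. Its mean difference was -1.21 (standard error 0.21, adjusted p 0.00175, over 6 pairs 0.0785, limma).

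Fosl1 and Fosl2, which encode Fra-1 and Fra-2, differed little by sample number. Fosl1 read 1859 to 4003 in sample 1 (median 2534) and 1535 to 2820 in sample 2 (median 2310), so the ranges largely overlapped. Its difference of -0.27 passed narrowly (standard error 0.09, adjusted p 0.0475, over 6 pairs 0.164, limma), and leaving out 1 group at a time kept the call in 2 of 11 fits, those without either Klf5 group. Fosl2 read 2034 to 4859 in sample 1 and 2190 to 4403 in sample 2, a difference of -0.09 (standard error 0.09, adjusted p 0.496, over 6 pairs 0.842, limma). Sample 1 was the higher in 9 of 11 groups for Fosl1 and in 8 of 11 for Fosl2.

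The Jun genes separated. Junb, the more abundant, read 2220 to 7829 in sample 1 (median 4680) and 2567 to 3772 in sample 2 (median 3154). Its 4 highest libraries were the sample 1 libraries of the Klf5 and Nfatc1 knockouts (7305, 7829, 6760 and 6713), while in control EPCAM+ cells sample 1 was the lower at day 0 (2220 and 2567) and at day 8 (2767 and 3154). The mean difference was -0.59 (standard error 0.15, adjusted p 0.0141, over 6 pairs 0.141, limma). Without the Klf5 and Nfatc1 lines, an alternative chosen after the values were seen, it was -0.28 (adjusted p 0.245, limma). Jun read 1272 to 2822 in sample 1 (median 1969) and 1484 to 3370 in sample 2 (median 1937), and sample 1 was higher in 6 of 11 groups. Its mean difference was 0.04 (standard error 0.13, adjusted p 0.881, over 6 pairs 0.889, limma), with the pairs going either way, from 0.58- to 1.60-fold.

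Atf3 read 320 to 2003 in sample 1 (median 1417) and 281 to 697 in sample 2 (median 474). In the control line samples 1 and 2 gave 356 and 281 at day 0, then 376 and 474 in EPCAM+ and 320 and 587 in EPCAM- cells at day 8. The Pitx1 knockout gave 1083 and 589 in EPCAM+ and 690 and 697 in EPCAM- cells. Sample 1 was thus the lower in both control groups of day 8 and in Pitx1 EPCAM- cells, and the higher in the other 8 groups. In the same order of fractions the Klf5 knockout gave 1986 and 594, then 1595 and 659. The Nfatc1 knockout gave 2003 and 443, then 1561 and 465, and the Creb3l1 knockout 1470 and 415, then 1417 and 296. On average sample 2 differed by -1.0 (standard error 0.31, adjusted p 0.0423, over 6 pairs 0.172, limma). Without the Klf5 and Nfatc1 lines it was -0.58 (adjusted p 0.448, limma), and leaving out 1 group at a time kept the call in 4 of 11 fits, those without a control group or without Pitx1 knockout EPCAM- cells.

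Egr1 had the largest mean difference of the 10 genes. It read 2128 to 12413 in sample 1 (median 5001) and 750 to 2210 in sample 2 (median 1458). In EPCAM+ cells at day 8 samples 1 and 2 gave 2384 and 1116 in the control line, 5001 and 1350 in the Pitx1 knockout, 9602 and 1540 in the Klf5 knockout, 8466 and 2210 in the Nfatc1 knockout and 2128 and 786 in the Creb3l1 knockout. In EPCAM- cells they gave 4608 and 1321, 5558 and 1458, 12413 and 2067, 8035 and 1540, and 3384 and 750. Sample 1 exceeded sample 2 in 11 of 11 groups, by 2.14- to 6.24-fold, and the ranges of the samples met only at the Creb3l1 and Nfatc1 EPCAM+ libraries (2128 and 2210). Sample 2 differed by -1.92 on average (standard error 0.14, adjusted p 3.30e-06, over 6 pairs 0.00128, limma).

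Nr4a1 and Nr4a2, orphan nuclear receptors of the same family, parted by sample number. Nr4a1 read 578 to 3055 in sample 1 (median 1235) and 301 to 622 in sample 2 (median 396). Sample 1 was higher in 11 of 11 groups, by 1.42- to 4.91-fold, with the largest value in control EPCAM- cells at day 8 (3055 and 622). The mean difference was -1.43 (standard error 0.15, adjusted p 4.20e-05, over 6 pairs 0.00389, limma). Nr4a2 read 197 to 660 in sample 1 (median 536) and 144 to 686 in sample 2 (median 513), and sample 1 was higher in 6 of 11 groups. Its mean difference was -0.09 (standard error 0.11, adjusted p 0.628, over 6 pairs 0.607, limma). Of all genes tested, 2.85% were higher in sample 1 in 11 of 11 groups, as Fos, Egr1 and Nr4a1 were.

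**Figure D2:**
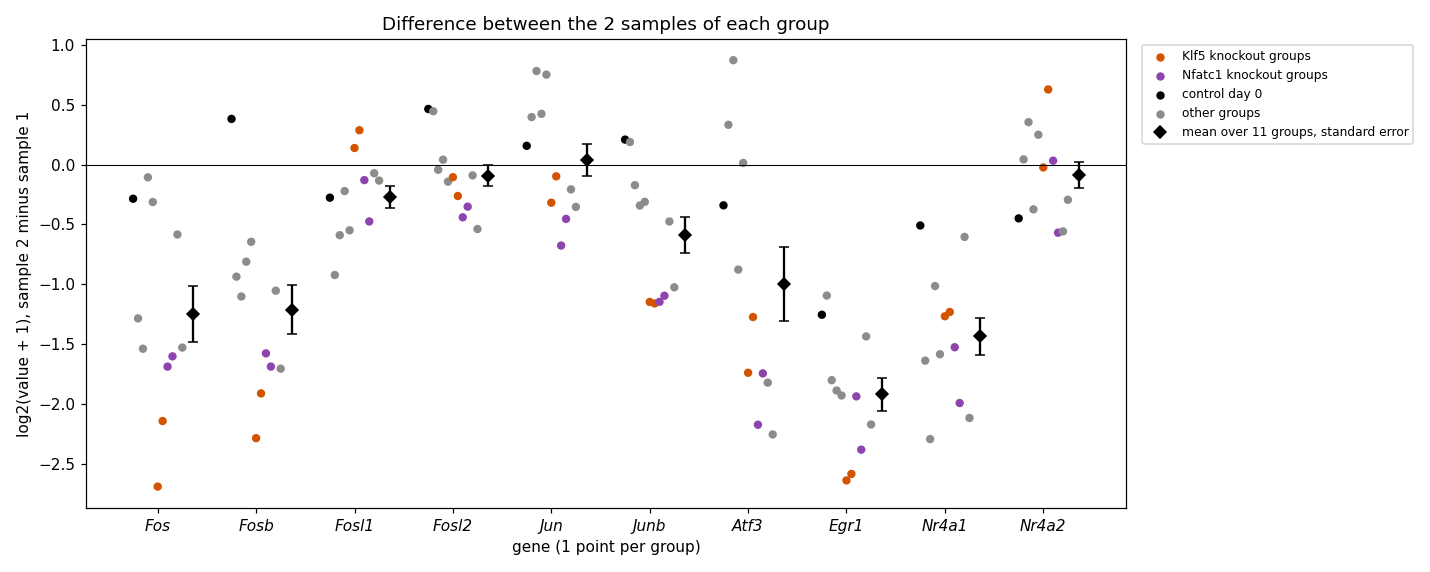
Difference of log2(value + 1) between sample 2 and sample 1 for each gene, with 1 point per group and a diamond for the mean over the 11 groups with its standard error from limma. Egr1 (-1.92), Nr4a1 (-1.43), Fos (-1.25) and Fosb (-1.21) lie lowest, Jun (0.04) and Nr4a2 (-0.09) scatter around 0, and the Klf5 and Nfatc1 knockout points are the lowest for Junb.

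Upstream sequences of 4 of these genes are shown to set Fos, Fosb and Nr4a1, called by sample number over the 11 pairs, beside Nr4a2, which was not called; over 6 pairs Nr4a1 alone of these 4 was called. They run from position -250 to position -11 relative to the start of the RefSeq transcript (build GRCm38.p6), 5′ to 3′ on the strand of the gene. Capitals mark TGACG, the core of the cAMP response element bound by CREB and ATF factors, or its reverse complement CGTCA. Fos lies at chr12:85473640-85473879 on the plus strand, Fosb at chr7:19310056-19310295 on the minus strand, Nr4a1 at chr15:101266596-101266835 on the plus strand and Nr4a2 at chr2:57124014-57124253 on the minus strand.
Fos: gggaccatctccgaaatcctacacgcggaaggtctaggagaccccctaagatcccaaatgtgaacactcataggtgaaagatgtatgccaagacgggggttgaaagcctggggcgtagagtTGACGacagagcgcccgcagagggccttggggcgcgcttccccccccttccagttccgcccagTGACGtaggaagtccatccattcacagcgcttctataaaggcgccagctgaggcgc
Fosb: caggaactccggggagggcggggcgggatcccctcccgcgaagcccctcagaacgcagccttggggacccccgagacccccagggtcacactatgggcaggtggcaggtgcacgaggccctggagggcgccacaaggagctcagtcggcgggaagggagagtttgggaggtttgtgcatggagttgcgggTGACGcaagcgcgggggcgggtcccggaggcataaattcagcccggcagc
Nr4a1: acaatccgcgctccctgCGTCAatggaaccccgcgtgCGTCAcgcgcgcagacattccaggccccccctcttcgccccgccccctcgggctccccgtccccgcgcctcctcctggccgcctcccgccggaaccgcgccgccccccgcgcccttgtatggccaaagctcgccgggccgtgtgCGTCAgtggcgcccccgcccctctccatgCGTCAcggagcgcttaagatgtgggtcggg
Nr4a2: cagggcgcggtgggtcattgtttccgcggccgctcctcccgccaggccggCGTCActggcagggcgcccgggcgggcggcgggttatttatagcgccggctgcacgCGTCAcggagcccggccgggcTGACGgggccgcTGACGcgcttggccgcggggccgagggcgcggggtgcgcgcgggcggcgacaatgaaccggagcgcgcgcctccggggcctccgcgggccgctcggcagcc

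In these windows TGACG or CGTCA occurred 2 times in Fos, at -129 and -66 from the start, 1 time in Fosb at -60, and 4 times each in Nr4a1 and Nr4a2. The nearest to the start was at -40 in Nr4a1 and at -111 in Nr4a2. RefSeq windows of 300 bases were matched for 8 of the 10 genes, Fosl1 and Egr1 being unmatched, and 6 of the 8 held the motif (Atf3, Fos, Fosb, Junb, Nr4a1 and Nr4a2), where 21.0% of the promoters of 27025 genes did. The full palindrome TGACGTCA was found in 0 of 8 (1.88% of all promoters), the AP-1 motif TGANTCA in 0 of 8 (7.93%) and the serum response element (CArG box) in 0 of 8 (1.57%), each searched on both strands. The windows shown start at -250 and nothing further upstream was searched, so a count of 0 does not cover elements there. A match describes these letters only, and the motif TGACG was present both in genes called by sample number over 11 pairs and in Nr4a2.

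Related gene lists were set beside the 10 genes along the sample number. Of 35 other immediate early genes tested, 17 were lower and 2 higher in sample 2 (median -0.36 on the log2 scale, over 6 pairs 7 lower and 0 higher). Klf4, a zinc finger factor, read 670 to 2425 in sample 1 and 437 to 940 in sample 2, a difference of -1.27 (adjusted p over 6 pairs 0.0165, limma). Egr2, an Egr1 paralogue, was low in both, at 11 to 216 and 9 to 33, and differed by -1.87 (over 6 pairs 0.0120, limma). Ier2 differed by -0.53 (over 6 pairs 0.0259, limma) and was higher in sample 1 in 11 of 11 groups.

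Of 24 feedback regulators, which shut off this response, 8 were lower and 0 higher in sample 2 (over 6 pairs 3 lower). Zfp36, whose product binds AU-rich elements and speeds the decay of such mRNAs, read 1134 to 1941 in sample 1 and 654 to 1483 in sample 2, a difference of -0.72 (over 6 pairs 0.0166, limma). Nab1, a corepressor of Egr factors, differed by -0.42, and Zfp36l2 by -0.62 (over 6 pairs 0.0274 and 0.0126, limma). Of 21 other bZIP partners, 10 were lower and 1 higher (over 6 pairs 5 lower and 0 higher). The stress-response factor Atf5 read 870 to 2821 in sample 1 and 410 to 780 in sample 2, without overlap, a difference of -1.40 (over 6 pairs 0.00132, limma). Jdp2, a Jun dimerisation partner, differed by -0.68, Maf by -2.03 and Atf4, the central factor of the integrated stress response, by -0.37 (over 6 pairs 0.00350, 0.00123 and 0.0139, limma).

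Heat shock genes had no common direction. Of 18, 5 were higher and 2 lower in sample 2 (median 0.09), and over 6 pairs 1 was higher and 1 lower. Hspd1, a mitochondrial chaperonin, read 8988 to 13923 in sample 1 and 11846 to 15909 in sample 2, a difference of 0.39 (over 6 pairs 0.0203, limma). Hspa1b, an inducible Hsp70 gene, read 139 to 883 in sample 1 (median 562) and 207 to 761 in sample 2 (median 544). Of 35 candidate AP-1 targets, 3 were higher and 3 lower in sample 2, and over 6 pairs 1 was higher and 1 lower. Ereg, an EGF receptor ligand, differed by -0.90 (842 to 2384 against 521 to 989, over 6 pairs 0.0263, limma), and Mmp1b was at 0 to 18 and 3 to 34 units.

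Markers of other cells were given the same comparison. Of the 16 immune markers 12 stayed under 10 units in all libraries, so their sum rests on few genes. The summed immune markers were 151 to 303 units in sample 1 (median 199) and 191 to 370 in sample 2 (median 249). The 8 endothelial and pericyte markers summed to 173 to 862 (median 429) and 242 to 963 (median 411), yet Kdr alone read 6 to 269 in sample 1 and 0 to 13 in sample 2, a difference of -4.19 (over 6 pairs 0.00177, limma). The 10 fibroblast markers summed to 193 to 5007 (median 888) and 90 to 3060 (median 668). Col3a1 read 3 to 1098 and 0 to 65, a difference of -4.20 (over 6 pairs 0.00446, limma), while Fap was at 0 in all libraries. Epcam, the marker used for the sort, was higher in sample 2 by 0.77 (adjusted p 0.0146, over 6 pairs 0.0197, limma). In EPCAM- cells samples 1 and 2 read 180 and 441 in the control, 269 and 658 in the Pitx1, 90 and 336 in the Klf5, 203 and 682 in the Nfatc1 and 427 and 735 in the Creb3l1 line. Control EPCAM+ cells at day 8 went the other way (6153 and 5633). The part of other cells, of the sort, of handling and of the batch in the difference by sample number was not tested.

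Between the sorted fractions at day 8 the response genes differed little, and the calls depended on how the samples were paired. Averaged over the 5 lines, 0 of 10 genes were called between EPCAM- and EPCAM+ cells without the sample number (6.22% of all genes were called, 2 of the 10 had an unadjusted p under 0.05, and voom called 0 of 10). With the sample number as a block Nr4a1 was called (10.1% of all genes). With each EPCAM- library compared with the EPCAM+ library of the same line and sample number, 10 pairs in all, Jun, Nr4a1, Fosl2 and Junb were higher in EPCAM- cells, 4 of 10, where 12.9% of all genes were called higher and 22% in either direction. The median difference of the 10 genes was 0.15 on the log2 scale, beside 0.06 over all genes.

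Nr4a1 had the largest of these differences. In sample 1 its EPCAM- and EPCAM+ cells read 3055 and 1235 in the control line, 1484 and 670 in the Pitx1 knockout, 1239 and 897 in the Klf5 knockout, 1400 and 869 in the Nfatc1 knockout and 1505 and 604 in the Creb3l1 knockout. In sample 2 the values were 622 and 396, 494 and 331, 527 and 372, 351 and 301, and 346 and 397. EPCAM- cells were the higher in 9 of 10 pairs, the exception being Creb3l1 sample 2 (11.2% of all genes were higher in 9 or more). The mean difference was 0.67 (adjusted p 0.436, with the block 0.0160, within pairs 0.00300, standard error within pairs 0.13, limma). It was 0.98 within sample 1 and 0.35 within sample 2, and 0.44 without the control EPCAM- library of sample 1.

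Jun was higher in EPCAM- cells in 10 of 10 pairs, which held for 4.34% of all genes. In sample 1 its EPCAM- and EPCAM+ cells read 1417 and 1272 in the control line, 2000 and 1559 in the Pitx1, 2822 and 2577 in the Klf5, 2653 and 2372 in the Nfatc1 and 1969 and 1759 in the Creb3l1 knockout. In sample 2 they read 2438 and 1676, 3370 and 2093, 2637 and 2067, 1937 and 1484, and 1541 and 1524. Over the pairs it averaged 0.29 (adjusted p 0.233, with the block 0.210, within pairs 0.000649, limma), and was 0.19 in sample 1 and 0.40 in sample 2. Fosl2 was higher in EPCAM- cells in 7 of 10 pairs, most in the Pitx1 knockout (4859 and 4403 against 3073 and 3162). Its mean difference was 0.22 (adjusted p 0.212, with the block 0.135, within pairs 0.0249, limma). Junb was higher in 8 of 10 pairs by a mean of 0.18 (adjusted p 0.733, with the block 0.542, within pairs 0.0314, limma). In the fit without pairing, leaving out 1 library at a time moved that mean between 0.06 and 0.29. It was 0.06 to 0.07 without sample 1 of the Klf5, Nfatc1 or Creb3l1 EPCAM- cells or sample 2 of the Klf5 or Nfatc1 EPCAM+ cells, and 0.28 to 0.29 without the other sample of any of these groups.

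The other 6 genes were called under none of the 3 pairings. Egr1 differed by 0.23, Fosb by 0.13, Nr4a2 by 0.12, Fos by 0.11, Fosl1 by -0.05 and Atf3 by -0.13, with adjusted p within pairs of 0.213 to 0.619 (limma). Within single lines 0 of 50 comparisons were called (limma; 1 at an unadjusted p under 0.05, and 0 with voom). The share of all genes called there was 0.644% in the control line, 0.317% in the Pitx1, 0.286% in the Klf5, 0.429% in the Nfatc1 and 0.291% in the Creb3l1 line. The fraction difference of each knockout line was also tested against that of the control line, with 0 of 40 called (limma; 0 at an unadjusted p under 0.05, and 0 with voom), where 0% of all genes were.

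**Figure D3:**
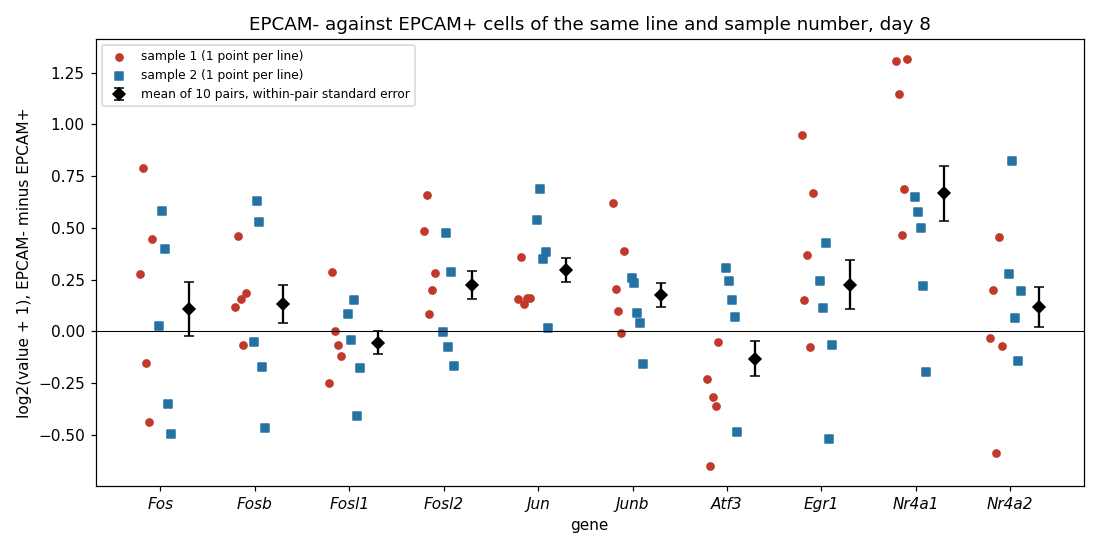
Difference of log2(value + 1) between EPCAM- and EPCAM+ cells of the same line and sample number at day 8, with sample 1 as circles, sample 2 as squares and a diamond for the mean of the 10 pairs with its within-pair standard error from limma. All 10 Jun points lie above 0, 9 of 10 Nr4a1 points do, and the sample 1 points of Nr4a1 (mean 0.98) lie above those of sample 2 (mean 0.35).

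In the related lists, 2 of 35 other immediate early genes were higher in EPCAM- cells without any pairing, and 11 were higher and 7 lower within pairs. Nr4a3, the remaining member of the Nr4a family, was scarce (0 to 69 units over all libraries) and was higher by 1.96 (adjusted p 0.0198, limma). Plk2, a polo-like kinase induced by serum, was higher by 0.49 (adjusted p 0.0370, limma). Among heat shock genes, Hspa1b was lower by -1.47 and Hspa1a by -1.12 in EPCAM- cells (adjusted p 0.000237 and 0.00315, limma), and 1 of the 18, Dnajb4, was higher, by 0.69. Of the 35 candidate AP-1 targets 4 were lower and 1 higher without any pairing, but 7 were lower and 10 higher within pairs. The EGF receptor ligand gene Tgfa was lower by -1.16 and Cd44 by -0.41, and the integrin gene Itga5 was higher by 0.84. Vim, the mesenchymal filament gene, read 30486 to 67534 in EPCAM- and 2332 to 16658 in EPCAM+ libraries. Of 6 fibroblast markers tested 2 were higher in EPCAM- cells, Pdgfrb by 3.43 and Col1a1 by 2.33, and their part in the fraction differences was not tested.

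From day 0 to day 8 in the control line, Nr4a2 was the gene called without the block. It read 197 and 144 in samples 1 and 2 of EPCAM+ cells at day 0, 549 and 566 in EPCAM+ cells at day 8, and 536 and 686 in EPCAM- cells at day 8. Both day 0 libraries lay below all 20 libraries of day 8 (359 to 686, knockouts included), a pattern that 1.67% of all genes had. EPCAM- cells at day 8 exceeded day 0 by 1.84 on the log2 scale, 3.58-fold (standard error 0.27, adjusted p 0.00117, limma), making Nr4a2 the 1 gene of 10 called where 2.01% of all genes were. The increase was 1.44 in sample 1 and 2.24 in sample 2, and the adjusted p was 0.0401 in a fit restricted to the groups compared.

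In EPCAM+ cells Nr4a2 exceeded day 0 by 1.72, 3.30-fold (standard error 0.27, adjusted p 0.0659, limma), and passed with the sample number as a block (0.0281) and without the filter on low values (0.0433) but not with voom (0.272). That contrast called 0 of 19569 genes without the block, with 831 at an unadjusted p under 0.05 and 0 with voom, and 0.0102% with it. Nr4a1 read 578 and 406 at day 0 and 3055 and 622 in EPCAM- cells at day 8, a difference of 1.51 (adjusted p 0.529, limma) that passed with the block (0.0297, where 4.31% of all genes were called). The difference was 2.40 in sample 1 and 0.61 in sample 2, and without EPCAM- sample 1 or sample 2 it was 0.36 or 2.65.

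Fos and Fosb were not called between the days, although both stood high at day 0. Fos read 3815 and 3131 at day 0 against 1778 and 729 in EPCAM+ and 2155 and 741 in EPCAM- cells at day 8, without overlap. The differences were -1.60 and -1.45 (adjusted p 1.00 and 0.529, limma). Fosb read 2711 and 3534 at day 0 against 2146 and 1121, then 2326 and 1083, differing by -0.996 and -0.963 (adjusted p 1.00 and 0.683, limma). Egr1 read 4715 and 1975 at day 0, which spanned the day 8 values of 2384 and 1116 in EPCAM+ and of 4608 and 1321 in EPCAM- cells except for the lower of each. The remaining genes, Fosl1, Fosl2, Jun, Junb and Atf3, differed by -0.14 to 0.75.

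Some related genes were called between day 0 and EPCAM- cells at day 8, where 2.01% of all genes were. Of 35 other immediate early genes, Arid5b rose by 0.99, Hes1, a Notch target, rose by 1.25 and Myc fell by 0.96 on the log2 scale. Of 24 feedback regulators, Zfp36l1 rose by 1.09. Tgfa fell by 1.02, 1 of 35 candidate AP-1 targets. The groups of this comparison differ in both day and sort. For Tgfa the difference between EPCAM- and EPCAM+ control cells, both of day 8, was -1.17 (adjusted p 0.0165, limma).

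Knocking out Pitx1, Klf5, Nfatc1 or Creb3l1 left 0 of 40 comparisons of these genes with the control line called at day 8 (fractions averaged; limma, 3 at an unadjusted p under 0.05, and 0 with voom). The share of all genes called was 0.204% for Pitx1, 0.0460% for Klf5, 0% for Nfatc1 and 0.179% for Creb3l1. Within single fractions 0 of 80 were called (4 at an unadjusted p under 0.05, lowest adjusted p 0.151, and 0 with voom). In EPCAM+ cells the share of all genes called was 0.409% for Pitx1, 0.0511% for Klf5, 0% for Nfatc1 and 0.194% for Creb3l1, and in EPCAM- cells 0.915%, 0.153%, 0% and 0.261%. All 4 knockouts share the control libraries, so a high or low control library enters each of them. Of 21 other bZIP partners, Atf2 was higher in the Pitx1 knockout, by 0.84 in EPCAM+ and 0.80 in EPCAM- cells (adjusted p 0.0449 and 0.0413, limma). With the fractions averaged, 0 of the 21 were called. The other immediate early genes, feedback regulators, candidate AP-1 targets and heat shock genes had 0 called in knockouts against control without the block.

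Atf3 shows how far the samples parted. Its knockout minus control difference in sample 1 was 1.31 in the Pitx1, 2.36 in the Klf5, 2.35 in the Nfatc1 and 2.05 in the Creb3l1 line. In sample 2 the same differences were 0.28, 0.25, -0.22 and -0.59. The means were 0.73 to 1.30 with adjusted p of 0.821 to 0.952 (limma), and the control libraries of sample 1 (376 and 320) were lower than those of sample 2 (474 and 587). Egr1 in the Klf5 knockout was 1.72 above the control in sample 1 and 0.55 in sample 2, and in the Nfatc1 knockout 1.31 and 0.60. Fos in the Nfatc1 knockout was similar in both, 1.23 and 1.00, with all 4 libraries (5358, 3950, 1662 and 1300) above the control library of the same fraction and sample number, yet it was not called (1.12, adjusted p 0.925, limma). Fos in the Klf5 knockout differed by 1.06 in sample 1 and 0.06 in sample 2. In the Creb3l1 knockout Fos (948, 1292, 632 and 447) was below the control library of the same fraction and sample number in all 4 libraries. Egr1 (2128, 3384, 786 and 750) was so too. Their mean differences were -0.64 and -0.48, and neither was called.

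Fosl2 came closest to a call. In the Pitx1 knockout it read 3073 and 3162 in EPCAM+ and 4859 and 4403 in EPCAM- cells, all above the control values of 2034 and 2772, then 2844 and 2761. The difference was 0.56, 1.47-fold (standard error 0.18, adjusted p 0.313, limma), 0.68 in sample 1 and 0.43 in sample 2. It passed when the fractions were counted as separate samples (0.0487), a fit that takes as independent the 2 fractions that deviated together. Nr4a1 lay below the control line in all 4 knockouts and both samples, by -1.03 to -0.82 in sample 1 and -0.61 to -0.16 in sample 2, with adjusted p of 0.877 to 0.952 (limma). Nr4a2 in the Nfatc1 knockout read 388 and 397, then 533 and 359, against 549 and 566, then 536 and 686 in the control, a difference of -0.49 (adjusted p 0.925, limma). Jun, Junb, Fosb and Fosl1 ranged from -0.19 to 0.93 over the 4 lines.

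**Figure D4:**
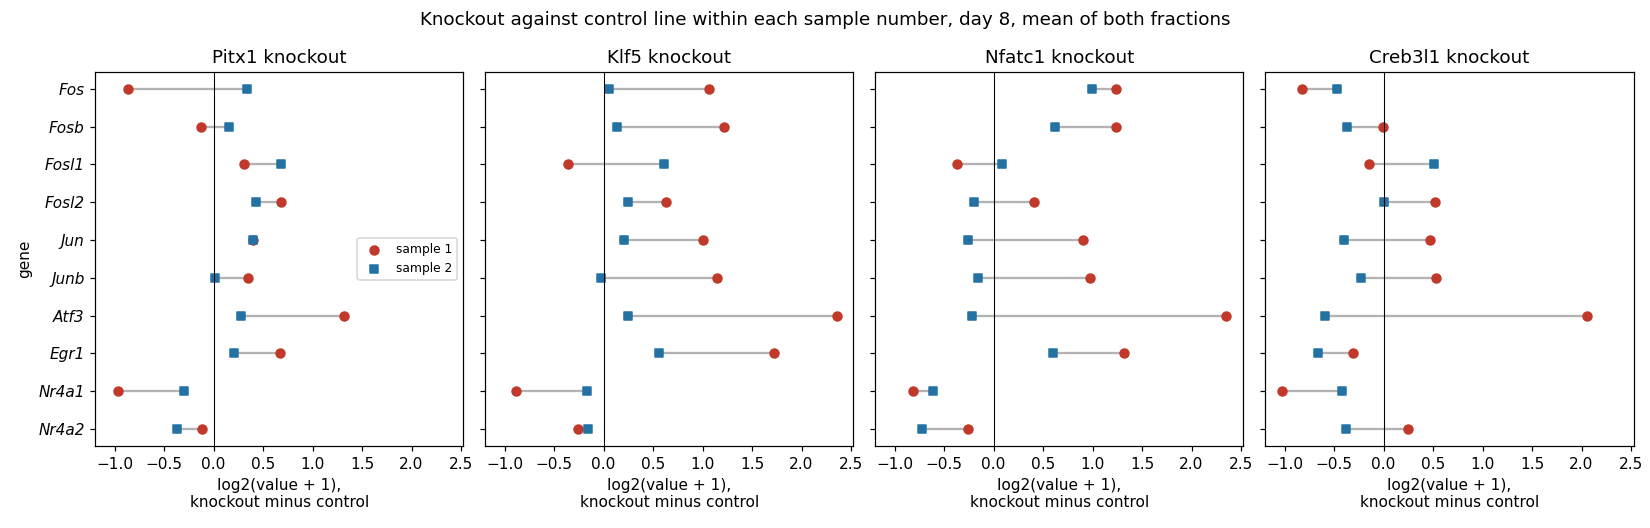
Difference of log2(value + 1) between each knockout line and the control line at day 8 (mean of both fractions), with sample 1 as circles and sample 2 as squares joined by a line. For Atf3 the sample 1 points lie at 1.31 to 2.36 and the sample 2 points at -0.59 to 0.28, while Nr4a1 lies left of 0 in both samples of all 4 lines.

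Across the 22 libraries likeness between genes is given as a description, since libraries of a line and sample number share their source. Fos and Fosb had a Pearson r of 0.946 on log2(value + 1), the highest that either had with any of 10667 genes searched, and Fos and Egr1 had an r of 0.820. Fos was at -0.44 with Nr4a2, 0.17 with Jun and 0.04 with Fosl2. The genes nearest to Egr1 were Wdr7 (0.924), Slc29a3 (0.914) and Tmem9b (0.903). Junb was nearest to Zc3h12a (0.936), which encodes the ribonuclease Regnase-1, and to Abl2 (0.927). Atf3 was nearest to Rhoq (0.936) and to the autophagy receptor gene Sqstm1 (0.934), Jun to Fermt2 (0.909), and Nr4a1 to Slc1a4 (0.907) and Klf13 (0.900). Nr4a2, Fosl1 and Fosl2 had looser neighbours, Ikzf5 at 0.820, Nfatc3 at 0.849 and Dennd5a at 0.853.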

How the data were processed

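RNA was measured in 22 libraries of sorted cells. The submitters' processing notes name FastQC, Trimmomatic, STAR, Picard and HTSeq with GRCm38/mm10, without versions. The authors deposited 1 table of per-gene values, read here as a score because the labels do not state the scaling in full. In each library 99.7 to 99.9% of its values fell on whole steps, taken as 1 read, so depth was recovered and nothing was rescaled. Identifiers were matched to GENCODE M21 (99.5%).

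Genes that reached 10 units in 2 or more libraries (19569) were fitted as log2(value + 1) with limma 3.58.1 in R 4.3.3 (trend, robust), 1 mean per group, and called at a Benjamini-Hochberg adjusted p below 0.05. The fit of 22 libraries had 11 residual degrees of freedom and that of knockouts, on fractions averaged, 5. The code was tested on simulated data. The labels tag the sample number as a batch. Replicate deviations correlated over 0.1 in 44 of 55 pairs of groups (median 0.316), and at 0.566 to 0.779 between fractions of a line. Blocked fits are therefore given where they change a call of a member. The members and lists were chosen with earlier results of these data known. Named genes were the members, the targeted genes, Epcam, up to 4 called genes per list (1 of these is not reported here) and up to 3 nearest by Pearson r. Some marker genes and Hspa1b's values by sample were added after their values were seen. Alternatives changed the pseudocount, filter, scaling, variance model, libraries fitted and block.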

Additional observations from a re-analysis of the deposited data

How the results depend on the processing

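The alternatives were a pseudocount of 10, no filter on low values, median-of-ratios scaling, voom on recovered reads, only the compared groups, and the replicate block. With the replicate block the counts of members called became 1 for the fractions (4 with the block within line), 1 for day 8 against day 0 in EPCAM+ cells and 2 for EPCAM- cells at day 8 against day 0. Without the filter it became 1 for day 8 against day 0 in EPCAM+ cells. With fractions as separate samples, which takes fractions that deviated together as independent, 1 knockout comparison was called. With the fractions averaged to 6 pairs, an alternative chosen after seeing the data, 2 members were called by sample number. Leaving out 1 library or group at a time gave 0 to 0 members called for the fractions, the day in EPCAM+ cells and the knockouts, 1 to 1 for EPCAM- cells against day 0 and 5 to 6 by sample number. Among member differences called under any setting, none changed direction under these alternatives or on leaving out 1 library or group. Uncalled differences could change sign, as Jun by sample number did without control EPCAM- cells at day 8. Atf3 in the Creb3l1 knockout did so without sample 1 of that line. The block changed no other call of a member. In the related lists the block moved several counts, of which only some are given here. Other immediate early genes between the fractions went from 2 higher and 0 lower to 4 and 2, and AP-1 targets from 1 higher to 2. Feedback regulators of EPCAM- cells against day 0 went from 0 lower to 1. In EPCAM- cells of the Pitx1 knockout against control, feedback regulators went from 0 higher to 3 and other immediate early genes from 0 lower to 1. The other 152 counts of members called, over all alternatives and leave-outs, stayed within 1.5 times of the value reported. Counts in the related lists and over all genes moved further. Over 6 pairs, other immediate early genes lower in sample 2 went from 17 to 7, and feedback regulators from 8 to 3. For EPCAM- cells against day 0 the block raised the calls over all genes from 393 to 843. The cause of the changes was not tested. With 2 libraries per group, fits without pairing could miss differences under the spread between samples.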
